A study of Drosophila melanogaster with 4 samples.

Results

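Chromatin immunoprecipitation followed by sequencing mapped the DNA bound by Insensitive (Insv) in Drosophila melanogaster embryos, and the positions described here are those called in younger embryos with no call nearby in older ones. They were chosen by the called coordinates of both lists: a member is an early position whose start lies more than 1000 bp from the start of every late position on the same chromosome. By that rule, 2316 of the 5364 early positions were early-only (43.2%, 95% exact binomial interval 41.8 to 44.5), and the other 3048 had a late position within 1000 bp. The share is set by the rule and by the lengths of both lists, and is given as a description.

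All embryos were of the white-eyed laboratory strain w[1118], whose genotype is labelled as wild type. The Insv antibody was used on 1 sample of 6.5-12 h embryos (late) and 1 sample of 2.5-6 h embryos (early), and IgG on 1 sample of each age, whose data were not used. Whole embryos hold many cell types, so fewer bound cells and weaker binding per cell cannot be told apart. Each age has a single library, so nothing here has a replicate error, and the intervals given describe counting error alone, as if positions were independent of each other.

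Insv is a small nuclear protein with a BEN domain, a fold that binds DNA, and it has no other known domain. It is known as a transcriptional repressor that restrains Notch target genes in the peripheral nervous system, where it favours the neural fate of sensory organ precursors. Its relatives Elba1 and Elba2, together with the adaptor Elba3, form the early boundary factor ELBA, which acts at insulators of the bithorax complex in the young embryo. The younger window covers blastoderm, gastrulation and germ band extension, and the older one germ band retraction and organ formation. No sequence or gene annotation of the dm3 build was used, so loci are given by coordinate and no gene, start site or binding motif is assigned to them.

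Early-only positions were mostly low in the early list, and their scores overlapped widely with those of the rest. The score is the authors' own value for each position, with no named scale. The median early-only score was 8.67, with quartiles at 6.33 and 11.8 and extremes at 2.54 and 63.2. The median of the other early positions was 16.1, with quartiles at 9.70 and 36.4 and extremes at 2.77 and 307. The medians differed by -7.43 (early-only minus other). A score over 20 was held by 106 early-only positions (4.58%) and by 1287 of the others (42.2%). A score over 30 was held by 25 early-only positions, against 932 of the others. Low scores were also found among the rest: the 10th percentile was 4.98 for early-only and 6.47 for the other early positions.

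The early-only share fell stepwise along the score, with little slope among the weakest positions. It was 68.5% (64.4 to 72.4) in the lowest decile of early score, 64.4% in the second and 64.9% in the third, and these intervals overlap. It was 48.9% (44.6 to 53.2) in decile 6 and 39.0% in decile 7. In decile 8 it was 26.6% (22.9 to 30.6), and in decile 9 it was 7.49% (5.41 to 10.1), or 40 positions. Decile 10 held 1 early-only position. Of the 537 positions of the lowest decile, 368 were early-only and 169 had a late position within 1000 bp.

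**Figure D1:**
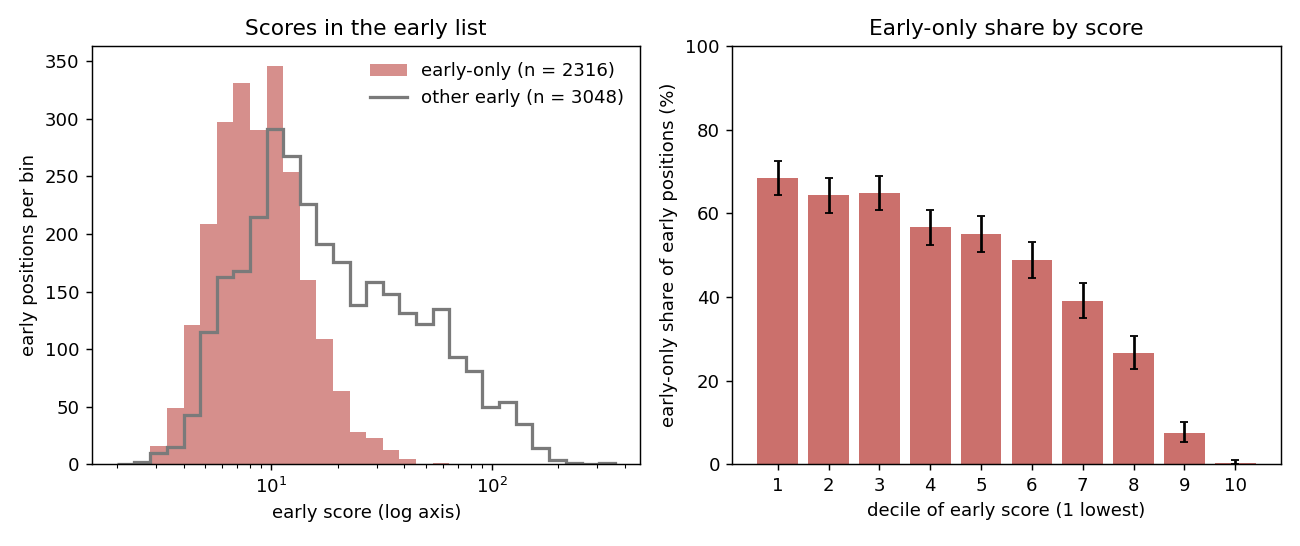
Left, histogram of early score (log axis, bins of equal width on that axis) for 2316 early-only positions (filled) and 3048 other early positions (outline). Right, share of early positions that were early-only in each decile of early score, with 95% exact binomial intervals; the share was 68.5% in decile 1 and 7.49% in decile 9.

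Early-only positions lay on all 5 large arms. Arm 3R held 577, 2R 475, 3L 455, X 405 and 2L 385, and the small chromosome 4 held 10. Another 9 lay off these arms: 6 on 2RHet, an assembly of heterochromatin, and 3 on U, a set of unplaced sequence. The late list had no position on U, so those 3 are early-only without any distance to measure. Heterochromatic and unplaced sequence is rich in repeats. The positions on U scored 5.99, 12.6 and 7.22, and those on 2RHet between 2.54 and 18.9.

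Arms ranked differently for early-only positions than for the rest. Per Mb of the called span of an arm, measured from its outermost positions of either list, 2R had 23.2 early-only positions, 3R 20.7, 3L 19.3, X 18.2 and 2L 17.5. The other early positions had 24.3 per Mb on 2R, 25.6 on 3R, 26.4 on 3L, 30.8 on X and 23.3 on 2L. Arm 2R was thus the highest of the large arms for early-only positions, while X was the highest for the rest. By the rule the rest lie near late positions, so their number depends on the late list. That list held 527 positions over the 22.2 Mb span of X and 405 over 20.5 Mb of 2R. It held 577 over 27.9 Mb of 3R, 472 over 23.6 Mb of 3L and 395 over 22.0 Mb of 2L. How far this sets the ranking of the arms was not tested.

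The early-only share of early positions differed accordingly. It was 48.8% on 2R (45.6 to 52.0), 44.7% on 3R (42.0 to 47.5), 42.9% on 2L (39.7 to 46.2) and 42.2% on 3L (39.2 to 45.2). On X it was 37.2% (34.3 to 40.1), against 44.6% (43.1 to 46.1) on the autosomal arms, a difference of -7.43 percentage points. Early positions on X also scored higher, and whether score accounts for the difference was not tested. Averaged over deciles of early score with equal weight, the difference was -1.22 percentage points. In decile 4 the share was 63.7% on X and 55.3% on autosomal arms, and in decile 8 it was 20.2% and 28.4%, so its direction varied between deciles.

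Early-only positions on X also scored higher than those on the autosomal arms. The median was 10.1 on X (quartiles 7.45 and 12.6, 405 positions), against 8.28 (6.18 and 11.6, 1902 positions) on the autosomal arms. The other large arms had medians between 8.07 on 2R and 8.67 on 2L. Positions on X with a late position nearby were higher too, with a median of 18.5, against 15.3 on the autosomal arms.

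**Figure D2:**
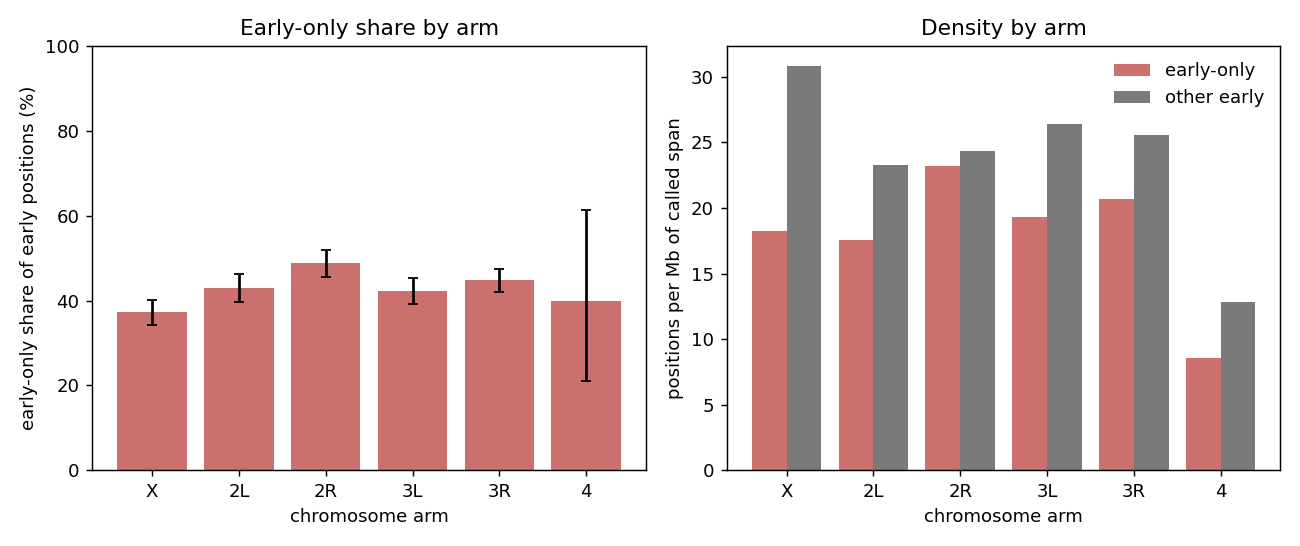
Left, share of early positions that were early-only on each arm, with 95% exact binomial intervals; X had 37.2% and 2R 48.8%, and the interval of chromosome 4 is wide because it had 25 early positions. Right, early-only and other early positions per Mb of called span, where X had 18.2 early-only and 30.8 other positions per Mb.

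Within arms, early-only positions were found throughout. With each large arm cut into 10 equal parts, their share of early positions was highest in the fifth part of 2L, which starts at 8996321. There, 69 of 107 early positions were early-only (64.5%, 54.6 to 73.5). The last part of 2R, at the tip of the arm, had 68 of 115 (59.1%, 49.6 to 68.2), and the eighth part of 3R had 74 of 126 (58.7%, 49.6 to 67.4). The lowest shares were in the fourth part of X, with 41 of 134 (30.6%, 22.9 to 39.1), and in the seventh part of X, with 25 of 80 (31.3%, 21.3 to 42.6). These are the extremes of 50 parts and were chosen after their values were seen.

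In windows of 1 Mb, each of the 120 windows of the large arms held an early-only position, with a median of 19 and a highest count of 39. That highest window lay on 2R between 3000001 and 4000000 and held 26 other early positions. The next were 2R 19000001 to 20000000 with 37 early-only and 25 other positions, and 3L up to 1000000 with 37 and 38. Counts of early-only and other early positions per window were correlated over the 120 windows (Spearman rho 0.56, Pearson r 0.56), which share 1 library. In windows of 100 kb the same values were 0.36 and 0.31 over 1165 windows. At that scale 241 of the 1165 windows (20.7%) held early-only positions and no other early position. These held 558 early-only positions (24.3% of those on the large arms). Both kinds lay in 584 windows, other early positions alone in 134, and neither in 206.

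The distance from an early-only position to the nearest late one had a median of 18327 bp, with quartiles of 6153 and 46268 bp, over the 2313 early-only positions with a late position on their sequence. Within 5000 bp of a late position lay 480 early-only positions (20.7%), and 1107 (47.8%) were more than 20000 bp away. More than 100000 bp away were 172 (7.43%). Early-only positions lay on both sides of their nearest late position in near-equal numbers, 1150 towards higher and 1163 towards lower coordinates.

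Early-only positions were denser near late positions. Over the sequence of the large arms lying 1 to 2 kb from a late position, there were 62.0 early-only positions per Mb (95% exact Poisson interval 53.1 to 71.9, 173 positions). At 2 to 5 kb there were 40.0 per Mb (35.6 to 44.8), at 5 to 10 kb 29.6 (26.4 to 33.0) and at 10 to 20 kb 24.1 (21.8 to 26.6). At 20 to 50 kb there were 17.8 per Mb (16.3 to 19.3), and at 50 to 100 kb 13.9 (12.5 to 15.4). Farther than 100 kb, 147 positions in 14.6 Mb gave 10.1 per Mb (8.52 to 11.8). The nearest band was 6.15 times as dense as the farthest, and each band was less dense than the one before it. Counting only the highest-scoring position of each early region, where regions chain early positions up to 1000 bp apart, the ratio was 4.68. Where that position was one of the other early positions, the early-only positions of its region were left out, and these lie near late positions. Regions holding both kinds had 53 early-only positions, so part of the lower ratio is built into this count.

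The decline was present on X and on the large autosomal arms. The band of 1 to 2 kb had 58.8 per Mb on X (40.7 to 82.2), against 62.8 (52.8 to 74.1) on the autosomal arms. Beyond 100 kb the values were 9.06 on X (5.61 to 13.9) and 10.3 (8.56 to 12.2) on the autosomal arms. Between 50 and 100 kb X had 8.87 per Mb (6.28 to 12.2), against 14.9 (13.3 to 16.6).

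Score did not follow distance in the same way. The median early score of early-only positions was 8.76 in the nearest band, 8.39 at 20 to 50 kb and 9.36 beyond 100 kb, and the medians of the other bands lay between 8.51 and 9.23. The quartiles of all 7 bands overlapped, with lower quartiles of 6.18 to 6.61 and upper quartiles of 11.2 to 12.4. The highest score was in the 50 to 100 kb band.

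**Figure D3:**
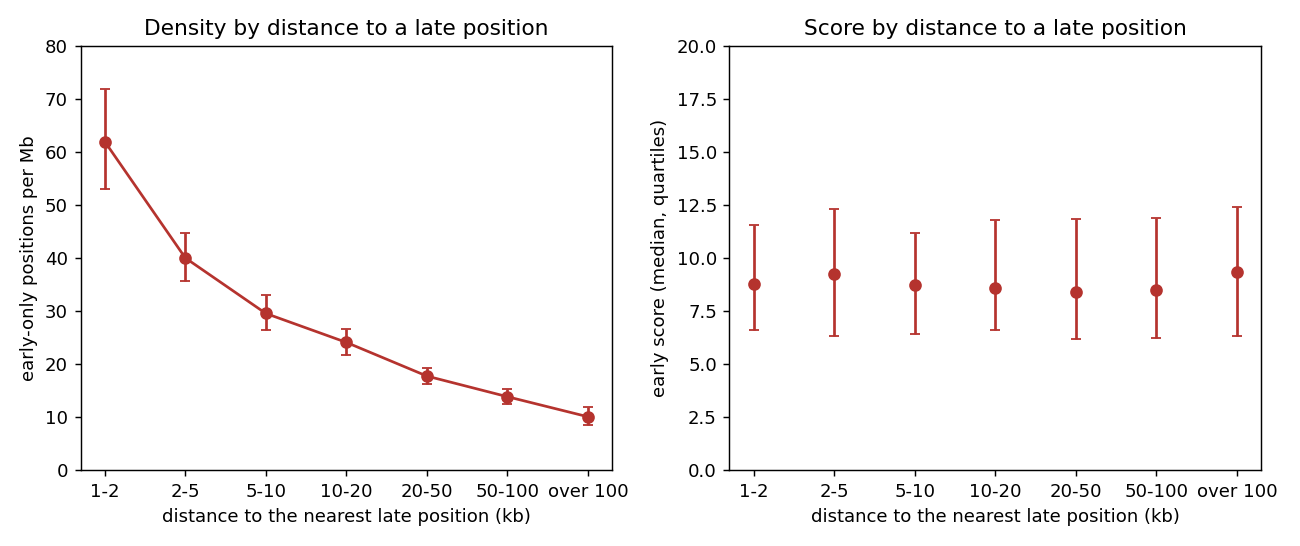
Left, early-only positions per Mb of sequence at each distance from the nearest late position on the large arms, with 95% Poisson intervals; the density was 62.0 at 1 to 2 kb and 10.1 beyond 100 kb. Right, median early score of the same positions with quartiles, which lay between 8.39 and 9.36 in all 7 bands.

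Late sites of every strength had early-only positions beside them. Late positions were chained into regions at 1000 bp and divided into 4 classes of equal size by their top late score, and early-only positions were counted up to 5000 bp from a region's ends. In the highest class, 110 of 390 late regions (28.2%, 23.8 to 33.0) had at least 1 early-only position, against 90 of 390 (23.1%, 19.0 to 27.6) in the lowest. The third class had 27.8% and the second 23.1%, and all 4 intervals overlap.

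The sequence between consecutive late positions forms stretches in which any early call beyond 1000 bp from both ends is early-only. Of 1459 such stretches longer than 2000 bp, 819 (56.1%) held at least 1 early-only position and 640 held none. A single one lay in 299 stretches, while 139 stretches with 5 or more held 948 early-only positions (40.9%). Occupied stretches were more frequent among long ones, with 39 of 260 (15.0%) at 2 to 10 kb, 267 of 558 (47.8%) at 10 to 50 kb, and 134 of 143 (93.7%) over 200 kb. Per Mb of stretch sequence more than 1000 bp from both ends, the order was opposite. There were 66.2 early-only positions per such Mb in stretches of 2 to 10 kb and 14.4 in those over 200 kb.

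The 5 fullest stretches held 12 to 14 early-only positions each and 1 or 2 other early ones. On 3L, 14 lay between late positions at 171731 and 347204, a length of 175473 bp near the tip of the arm, with a median score of 6.42 and a highest score of 18.8. On 3R, 14 lay between 19883955 and 20120718, with a median score of 7.01 and a highest of 17.1. On 2R, 13 lay between 19916803 and 20162591, with scores of 4.62 to 13.4. The 13 between 3R 14061805 and 14483749 had a median of 10.9 and reached 32.4, and the 12 between 2R 3954146 and 4139219 had a median of 8.04 and reached 18.6. Of these 5 stretches, the one from 3R 14061805 held scores over 20 and the other four did not. The longest stretch, 898082 bp on 2L between 16817958 and 17716040, held 10 early-only positions with scores of 5.45 to 27.4 and no other early position. By contrast, 9 stretches over 200 kb held no early-only position, among them 287284 bp of 2L between 11517271 and 11804555, which had no early call at all between its ends.

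Most early-only positions stood alone. No other early position of any kind lay within 1000 bp of 1713 of them (73.96%), against 751 of the 3048 other early positions (24.6%). No early position lay within 10000 bp of 702 early-only positions (30.3%), against 297 of the others (9.74%). Part of this difference is built into the rule, because early positions close to each other around 1 late position all fall among the others. A difference was also seen within score deciles, but the rule acts in each decile, so these shares cannot separate the built-in part. In decile 1 of early score 77.7% of early-only positions stood alone (73.1 to 81.9), against 36.1% (28.9 to 43.8) of the others, and in decile 8 the shares were 62.7% (54.2 to 70.6) and 19.9% (16.1 to 24.2).

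Looking only at their own kind, 574 early-only positions (24.8%, 23.0 to 26.6) had another early-only position within 1000 bp, and 1019 (43.998%) had one within 5000 bp. For the other early positions, 2296 (75.3%) had one of their own kind within 1000 bp. A position with a late site in reach lay within 1000 bp of 47 early-only positions. Because regions chain positions over the same 1000 bp as the rule, positions around 1 late site mostly fall in the same kind, which keeps mixed regions few by construction. Of 3429 early regions, 1959 (57.1%) were wholly early-only, 1432 held none, and 38 were mixed. Among regions of 1 position, 1713 of 2464 were early-only (69.5%), among regions of 2 it was 205 of 530 (38.7%), and among regions of 3 or more 41 of 435 (9.43%). Of 147 regions with 5 or more positions, 4 were wholly early-only.

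Neighbouring early-only positions were spaced at a median of 22035.5 bp, with quartiles of 4455 and 65778 bp. Spacings of 1000 bp or less numbered 318 of 2308 (13.8%), against 1577 of 3040 (51.9%) between other early positions. Within those short spacings the medians were 369 bp for early-only and 317 bp for other positions. Spacings of 200 to 300 bp made up 20.8% of the short early-only spacings, against 32.5% of the others, and those of 100 to 200 bp 16.7% and 13.1%. The closest early-only neighbours were 99 bp apart and the closest others 90 bp.

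The deposited names carry a rank number, and near neighbours often share it; what it ranks is not given in the sources used here. Early-only neighbours up to 200 bp apart shared it in 54 of 55 pairs, against 215 of 216 pairs of other early positions. At 200 to 300 bp the shares were 69.2% of 65 early-only pairs and 88.2% of 509 other pairs, and at 300 to 400 bp 29.8% of 57 and 67.9% of 321. In these pairs a shared number ended at shorter spacings among early-only positions than among the others. The pairs were not matched on score, which was mostly lower for early-only positions.

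**Figure D4:**
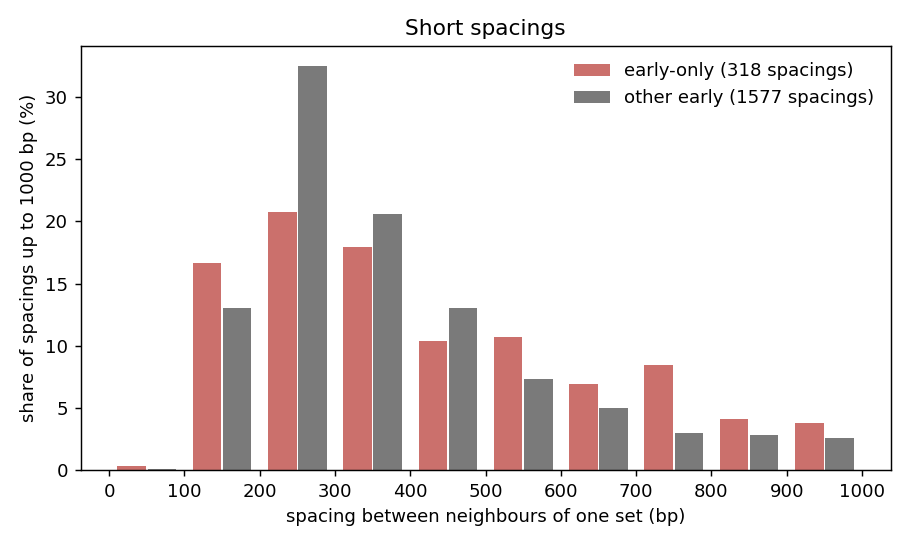
Spacings of up to 1000 bp between neighbouring early-only positions (left bar of each pair, 318 spacings) and between neighbouring other early positions (right bar, 1577), as a share of each set in bins of 100 bp. Between 200 and 300 bp lay 20.8% of early-only and 32.5% of other short spacings.

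Chained at 1000 bp among themselves, early-only positions formed 1998 groups, of which 1742 were single positions. The 256 groups of 2 or more held 574 positions: 211 pairs, 33 groups of 3 and 12 groups of 4 to 6. No other early position lay inside any of them, which the rule and this chaining distance fix in advance. At this chaining distance, scores were higher in larger groups. The median over single positions was 8.38, over positions in pairs 9.18, in groups of 3 9.88 and in groups of 4 or more 12.9. The top score of a group had medians of 11.9 for pairs, 12.6 for groups of 3 and 20.2 for groups of 4 or more, where more positions give more chances of a high one.

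The largest group lay at X 10366797 to 10369205 and held 6 positions over 2409 bp. Their scores were 9.44, 14.3, 6.49, 21.9, 12.8 and 19.6 in order along X, at spacings of 851, 749, 324, 211 and 272 bp, and the nearest late position was 3110 bp away. Of the groups of 5, the one at 2L 10647006 to 10648444 had the highest top score. It lay far from late sites, with 83970 bp to the nearest. Its 5 positions scored 32.0, 31.0, 20.1, 17.6 and 8.80, in falling order along the arm. Another 5 lay at 2L 9757404 to 9759027, with a central peak of 28.3, flanking scores of 13.9 and 12.4, outer scores of 3.77 and 8.94, and 128956 bp to the nearest late position. The most compact group of 5, 853 bp long at X 10635822 to 10636674, had scores of 11.2, 10.9, 13.7, 5.76 and 11.

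The groups of 4 had lengths of 584 to 1854 bp among those ranked in the first 10. At X 3587769 to 3589622 the scores reached 36.4, with 18.6 before it and 4.18 at the lowest, and at 2R 3826635 to 3828101 they were 12.9, 25.1, 14.6 and 28.1. The remaining 4 were on 3R. Those at 21843167, 12076017 and 9809044 (first base) reached 20.7, 19.7 and 15.7 and lay 4670, 7471 and 2200 bp from a late position. The fourth, at 22692584, had even scores of 16.9, 14.0, 16.2 and 15.8.

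At a chaining distance of 5000 bp, 412 groups of 2 or more held 1019 early-only positions. The fullest held 8, over 17821 bp at 3L 681924 to 699744, with scores of 3.29 to 22.98 and 8400 bp to the nearest late position. The group of 7 at X 10635822 to 10639518 extends the compact group described above. A group of 6 at 2R 3951401 to 3956234 reached 28.7 and lay on both sides of a late position at 3954146, the closest member 1073 bp from it, with 2 other early positions inside its span. The group of 6 at 2R 13389174 to 13392536 reached 18.3. At this wider distance the median score was 8.19 over single positions, 9.20 in pairs, 9.17 in groups of 3 and 10.1 in groups of 4 or more.

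The strongest early-only locus was 3R 9112059 to 9112060, with an early score of 63.2. It was number 340 in the early list, so 339 positions with a late site nearby scored higher. It stood by itself: 1 early-only position, scoring 9.22 and 22960 bp away, was the sole other early call within 50000 bp, and late positions began 95479 bp away. That late position scored 45.9 in the late list, above the late upper quartile of 28.8.

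The second locus, 3R 7836521 to 7836522, scored 44.8, with an early-only neighbour of 9.41 at 348 bp and no late position nearer than 122673 bp. The third differed from both. At X 1181439 to 1181440, with a score of 42.5, the nearest late position was 1083 bp away, just past the limit, and an early position of 16.5 at 305 bp was within reach of that late site. The fourth, X 11347380 to 11347381, scored 42.1 and had an early-only neighbour scoring 27.4 at 393 bp, with 29833 bp to the nearest late position. The fifth, 3R 16778770 to 16778771, scored 41.9 and lay 4868 bp from a late position. The sixth, 2L 18357360 to 18357361, scored 40.4, with 85911 bp to the nearest late position and 3 early-only positions but none of the others within 50000 bp.

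**Figure D5:**
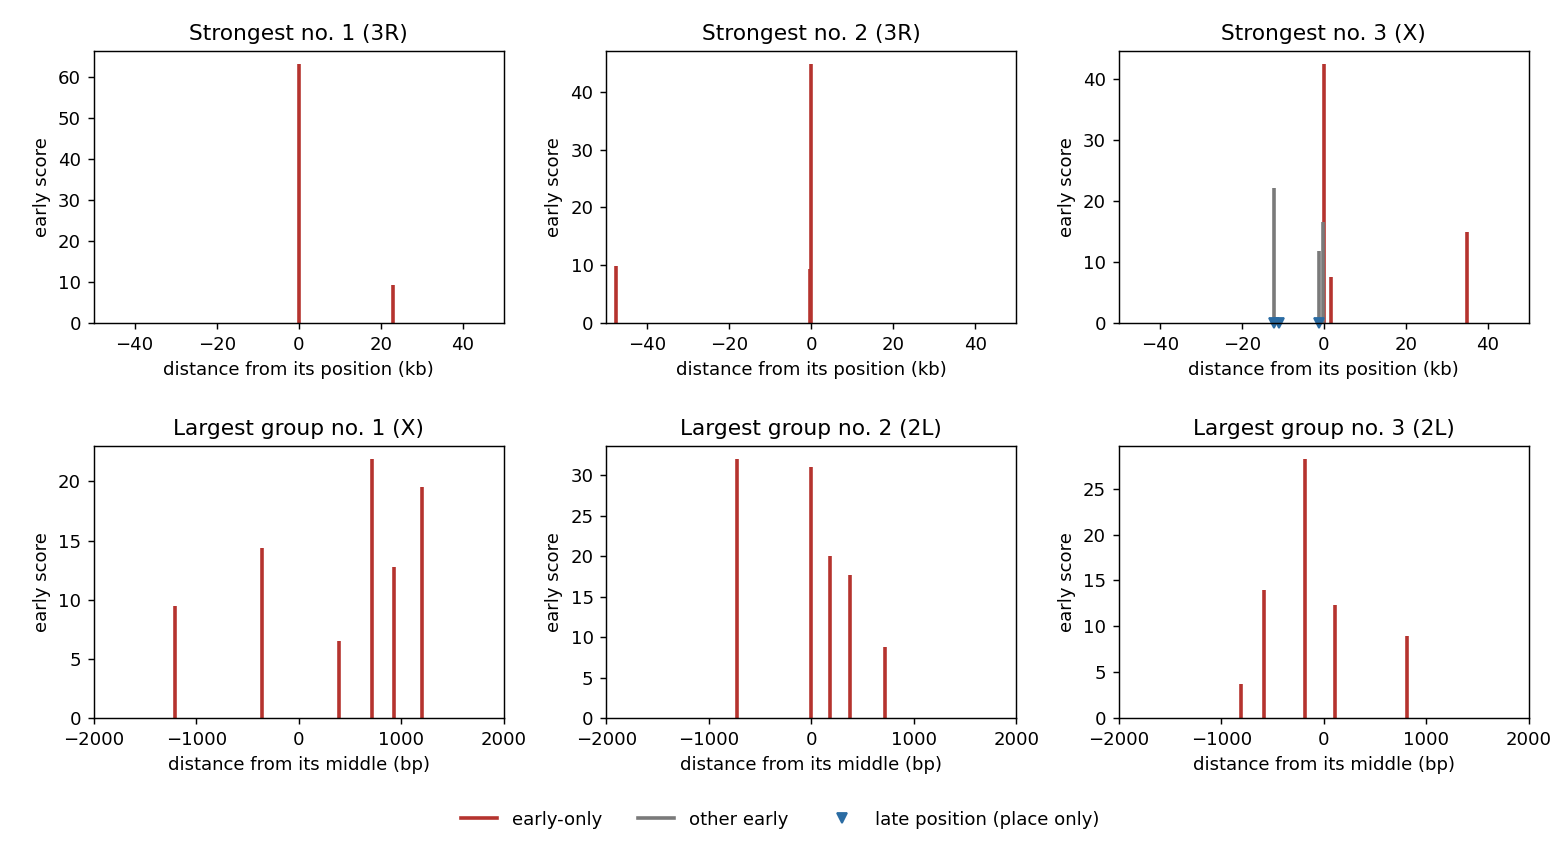
Upper row, early scores within 50 kb of the 3 strongest early-only positions (scores 63.2, 44.8 and 42.5); lower row, the early-only group of 6 and the 2 groups of 5 with the highest top scores among 3 groups of 5, within 2000 bp of their middle. Vertical lines are early positions, early-only or other, and triangles on the axis mark late positions without their score; late positions are seen only around the third strongest.

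The 20 highest-scoring early-only positions had scores of 31.5 or more, a level that 888 other early positions exceeded. Of these 20, 9 were on 3R, 6 on X, 3 on 2R and 2 on 2L, and none on 3L, whose highest early-only score was 28.6. Their median distance to a late position was 54374 bp, and 15 were more than 10000 bp away. An early-only neighbour lay within 1000 bp of 7 of them, and 5 had no early position of any kind within 10000 bp.

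Of the remaining 14, 7 lay more than 50 kb from any late site. The position at 3R 14229015 to 14229016 scored 32.4, with an early-only neighbour of 19.6 at 548 bp and 167210 bp to the nearest late position. At X 18693468 to 18693469 the score was 36.6 and the distance 163975 bp. At 3R 4289761 to 4289762 the score was 31.5 and the distance 106180 bp. None of these 3 had another kind of early position within 50000 bp. The positions at 2R 9236978, X 3473097, 2L 10647006 and 3R 19643768 (first base) scored between 32.0 and 36.3 and lay 72057 to 99242 bp from a late one; that on 2L begins the group of 5 described above.

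The other 7 lay closer to late sites. At 2R 9040221, 3R 1509160 and X 11928010 the scores were 33.2, 33.6 and 34.0, and the late positions were 36690, 34141 and 21031 bp away. The position at 3R 5205293 scored 33.8, lay 20469 bp from a late one and had 13 of the other early positions within 50000 bp, the most of the 20. At X 3589028, inside the group of 4 named above, the score was 36.4 and the nearest late position was 5633 bp away. The positions at 3R 1290439 and 2R 5987502 scored 31.9 and 32.5, with late positions 9906 and 3117 bp away.

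The 3 positions farthest from any late one scored 7.19 to 12.8, where the early-only median was 8.67 and the upper quartile 11.8. On 2RHet, which had 1 late position, an early-only position at 2809016 scored 12.8 at 2342236 bp. On the large arms the farthest were X 22264698, scoring 7.19 at 1035675 bp, and X 22226690, scoring 12.0 at 997667 bp, both at the centromeric end of X beyond its last late position. On chromosome 4, the 10 early-only scores ran from 3.42 to 25.9, and the highest, at 854993, was 1589 bp from a late position.

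Positions at the edge of the rule did not stand apart from each other. The nearest early-only position was 1002 bp from a late start (3R 14484751, score 6.402), and 2 other early positions lay at exactly 1000 bp, with scores of 12.9 and 3.24. The 10 early-only positions within 50 bp beyond the limit had a median score of 9.28 (4.03 to 15.0), and the 18 other positions within 50 bp inside it had 8.43 (3.24 to 19.7).

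Exact repeats of a score within the early list were more frequent among early-only positions in the middle of the score range. Among scores over 10 and up to 20, 270 of 824 early-only positions (32.8%, 29.6 to 36.1) had a score that another early position also had to the last printed digit, against 232 of 967 other positions (24.0%, 21.3 to 26.8). Over 20 and up to 30 it was 33 of 81 (40.7%, 29.9 to 52.2), against 78 of 355 (22.0%, 17.8 to 26.6). At 10 or less the shares were 8.15% of 1386 and 9.19% of 794, and their intervals overlap.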

How the data were processed

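Insv immunoprecipitates of 2 ages were used, with 1 sample each. The submitters' processing notes name the aligner Bowtie and the build dm3. How positions were called, at which threshold and against which control is not given in the sources used here. For each sample the authors deposited called positions, all 2 bp wide, each with a score that was compared only within its list. Read depth is unknown. PCR duplicates and molecular identifiers are not described in the labels, so intervals cover counting error only.

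Coordinates were made 1-based in dm3. Early positions were early-only when every late start on the same sequence lay more than 1000 bp away; the 3 on U have no late position to compare. Groups chain positions up to 1000 or 5000 bp apart. Density by distance divides the early-only positions of a band by the sequence in that band between the first and last late position of each large arm. Intervals are 95% exact binomial (Clopper-Pearson) or exact Poisson. With 1 library per age no test was made. The members, the rules for naming loci and the comparisons were chosen with earlier results of these data known: the 20 highest-scoring early-only positions, the 10 largest groups at 1000 bp and 5 at 5000 bp, the 5 fullest stretches, the 3 farthest positions and those at the limit; other loci were chosen after their values were seen. No dm3 sequence or annotation was used, so the planned motif and start site counts were not run. The code was tested on simulated lists. Software was Python 3.11.15 with scipy 1.17.1, pandas 2.3.3, numpy 2.4.6 and matplotlib 3.10.9.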

Additional observations from a re-analysis of the deposited data

How the results depend on the processing

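The number of early-only positions, 2316 at a limit of 1000 bp, lay between 1836 and 3039 at limits of 5000 and 200 bp. It was 3290 when only late positions scoring at or above the late median counted, and 656 among early positions scoring at or above the early median, which are fewer by construction. The median score was lower for early-only positions in each of the 6 alternatives run, with differences of -12.8 at 200 bp, -8.81 at 500 bp, -5.62 at 5000 bp and -15.2 for regions by their top score. Regions with more positions have more chances of a high top score, and 1713 of the 1959 wholly early-only regions held 1 position. The X minus autosomal share difference was -1.22 within score deciles and between -5.92 and -8.64 in the other 5 alternatives. The share with an early-only neighbour was 16.8% within 500 bp, 32.5% within 2000 bp and 44.0% within 5000 bp, and 412 groups of 2 or more formed at 5000 bp, as wider distances must give. The density ratio of nearest to farthest band, whose alternatives were added after the data were seen, was 4.68 with 1 position per region and between 5.22 and 6.58 in the other 7. Windows for motifs and start sites were not run. No paired analysis was possible because there was 1 library per group. Depth is unknown, so late binding below the late calling threshold at early-only positions was not measurable, and "early-only" refers to calls.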
